A study of Mus musculus with 8 samples.

Results

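Serpins are a family of proteins of which most block proteases. An inhibitory serpin offers an exposed reactive centre loop as bait. The protease cuts the loop between the residues called P1 and P1′, the cut loop folds into the body of the serpin through a flexible hinge, and the protease stays trapped on it. The family holds secreted members of the blood, such as antithrombin, and members of clade B that work inside cells, where they restrain proteases that leak from granules and lysosomes. In lymphocytes and other killer or phagocytic cells the intracellular serpins are known for protecting the cell from its own granzymes and cathepsins.

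Levels of 8 serpin transcripts, Serpinc1 (antithrombin), Serpinb9, Serpinb6a, Serpinb6b, Serpinb1a, Serpina3g, Serpina3f and Serpinf1, were compared between 2 regulatory T cell (Treg) populations. The members are the rows of both deposited tables whose Ensembl identifier maps to these symbols, and they were chosen on their values in these same libraries. They are 8 of 68 serpin genes, and of 47069 Ensembl genes, present in both tables. Because the choice used the difference between the populations, that difference is given for members as a description, without a test.

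The cells came from the lymph nodes of C57BL/6 mice, 6 to 8 weeks old, that all carried both the 35EbiT reporter and the Blimp1-GFP KI. Both populations were CD4+CD25+ and CD62L low. In addition, Ebi3-Treg cells were Thy1.1+Blimp1-, whereas Blimp1-Treg cells were Thy1.1-Blimp1+. CD4+ T cells had been enriched on magnetic beads, and the sorted cells were typically more than 90% pure. The populations are therefore defined by reporter signals in sorted bulk cells, in which fewer expressing cells and less RNA per cell cannot be told apart. Each population had 4 libraries. Those numbered 1 and 2 were deposited in one table of FPKM (fragments per kilobase and megafragment) and those numbered 3 and 4 in another. The labels do not say whether each library is a separate animal, so the p-values cover no more than the spread among these 8 libraries, technical spread included.

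The depth behind the values was 13.3 to 25.6 megafragments in Ebi3-Treg and 14.7 to 31.3 megafragments in Blimp1-Treg. Treg and reporter genes followed the labels, with Ebi3 at 20.1 to 46.6 FPKM in the Ebi3-Treg libraries, against 4.94 to 11.7 FPKM in those of Blimp1-Treg, and Prdm1, which encodes Blimp1, at 1.94 to 4.33 FPKM in the Ebi3-Treg libraries, against 52.2 to 120.7 FPKM in the Blimp1-Treg ones. The libraries numbered 1 stood apart in both populations by B cell transcripts, with Cd79a, which encodes a chain of the B cell receptor complex, at 65.1 FPKM in the Ebi3-Treg library and 51.97 FPKM in the Blimp1-Treg library of that number, and at most 2.31 FPKM in the other 6. Some myeloid transcripts were highest in Ebi3-Treg 1 and 2. Lyz2 was at 99.1 and 91.1 FPKM there, against 3.74 to 29.9 FPKM in the other 6 libraries. Fcer1g was at 39.6 and 21.2 FPKM, against at most 1.56 FPKM. Not all myeloid markers followed, since Cd68 was at 5.51 and 5.16 FPKM in Ebi3-Treg 1 and 2 and at 8.63 FPKM in Blimp1-Treg 2. Xist was at least 18.5 FPKM in libraries 3 and 4 and at most 0.0750 FPKM in libraries 1 and 2, so the table and the sex of the mice cannot be told apart.

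The coding sequences of the reactive centre loop are shown because this stretch decides which protease a serpin can trap, and because the 2 pairs of close relatives among the members differ in it. They were read 5′ to 3′ from the GENCODE reference transcripts, from the first codon of the hinge to the end of the loop. Capitals mark the 17th and 18th codons counted from the first codon of the hinge, the usual places of P1 and P1′.
Serpinc1: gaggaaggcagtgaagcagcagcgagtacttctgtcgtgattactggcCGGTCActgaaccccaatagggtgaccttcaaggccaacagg
Serpinb9: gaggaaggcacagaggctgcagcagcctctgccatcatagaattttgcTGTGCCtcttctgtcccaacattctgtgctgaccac
Serpinb6a: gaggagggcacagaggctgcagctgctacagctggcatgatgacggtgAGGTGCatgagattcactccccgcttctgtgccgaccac
Serpinb6b: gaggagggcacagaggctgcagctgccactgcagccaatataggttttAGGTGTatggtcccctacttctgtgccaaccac
Serpinb1a: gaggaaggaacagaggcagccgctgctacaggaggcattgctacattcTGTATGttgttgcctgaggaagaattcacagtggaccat
Serpina3g: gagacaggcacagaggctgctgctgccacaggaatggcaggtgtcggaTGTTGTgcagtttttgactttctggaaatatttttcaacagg
Serpina3f: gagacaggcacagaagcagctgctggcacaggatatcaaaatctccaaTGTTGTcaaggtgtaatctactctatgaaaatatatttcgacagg
Serpinf1: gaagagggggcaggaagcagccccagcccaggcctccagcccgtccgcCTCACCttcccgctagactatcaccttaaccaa
In antithrombin the capital codons encode the arginine and serine between which thrombin cuts. Serpinb6a and Serpinb6b shared 96.3% of the bases of their hinge and 70.4% of the rest of the loop, against 85.5% over the 300 coding bases before the hinge (297 aligned). Serpina3g and Serpina3f were 94.3% identical over the 300 coding bases before the hinge, 88.9% in it and 66.7% in the rest of the loop. Within each pair the capital codons encode the same residues. They are arginine and cysteine in Serpinb6a and Serpinb6b, and cysteine at both places in Serpina3g and Serpina3f. In Serpinf1, which does not inhibit proteases, the hinge matched those of the other 7 members at 33.3% to 44.4% of its bases, while the hinges of those 7 matched each other at 59.3% to 96.3%.

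Antithrombin is the plasma inhibitor of thrombin and factor Xa and is made mainly by the liver. Over all 8 libraries its transcript had the largest log2 difference of the 8 members in either direction. In libraries 3 and 4 alone Serpinf1 had the larger one, -2.82 against 2.54 for Serpinc1. Serpinc1 (ENSMUSG00000026715, chromosome 1) was at 19.6, 36.2, 30.3 and 21.0 FPKM in Ebi3-Treg 1 to 4 and at 1.46, 1.70, 3.97 and 3.06 FPKM in Blimp1-Treg 1 to 4. Every Ebi3-Treg library was above every Blimp1-Treg library. The means were 26.8 ± 7.89 FPKM in the Ebi3-Treg libraries and 2.55 ± 1.18 FPKM in the Blimp1-Treg libraries (SD, n = 4 each), a ratio of 10.5 and a log2 difference of 2.99 on the log2(FPKM + 1) scale. These values stand for 646 to 1169 reads per Ebi3-Treg library and 53 to 122 reads per Blimp1-Treg library.

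In the GENCODE annotation of GRCm38, a later build than the one named for the files, the exons of Serpinc1 overlap those of Zbtb37 on the opposite strand over 2942 bases, 34.4% of its exon length, and whether the counting used strand is not given in the sources used here. Zbtb37, which encodes a zinc finger protein, was at 2.29 ± 0.52 FPKM in the Ebi3-Treg libraries and 1.68 ± 0.31 FPKM in the Blimp1-Treg libraries (SD, n = 4 each), and its log2 fold change was 0.29 (SE 0.18, adjusted p = 0.475). Rc3h1, the neighbour on the other side and the gene of the RNA-binding protein roquin-1, was at 7.90 ± 1.90 FPKM in the Ebi3-Treg libraries and 8.33 ± 1.57 FPKM in the Blimp1-Treg libraries (SD, n = 4 each). Its log2 fold change was -0.08 (SE 0.20, adjusted p = 0.924). Neither neighbour passed the test, and both had overlapping populations. The part of Zbtb37 reads in the Serpinc1 values was not tested. The 8 liver markers summed to 0.297 to 2.08 FPKM in the Ebi3-Treg libraries and 0.999 to 3.81 FPKM in the Blimp1-Treg libraries. The highest was Alb, the gene of albumin, at 3.33 FPKM in Blimp1-Treg 4, where Serpinc1 was at 3.06 FPKM, and Fgb was at no more than 0.103 FPKM in any library. The part of liver RNA in the Serpinc1 values was not tested.

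**Figure D1:**
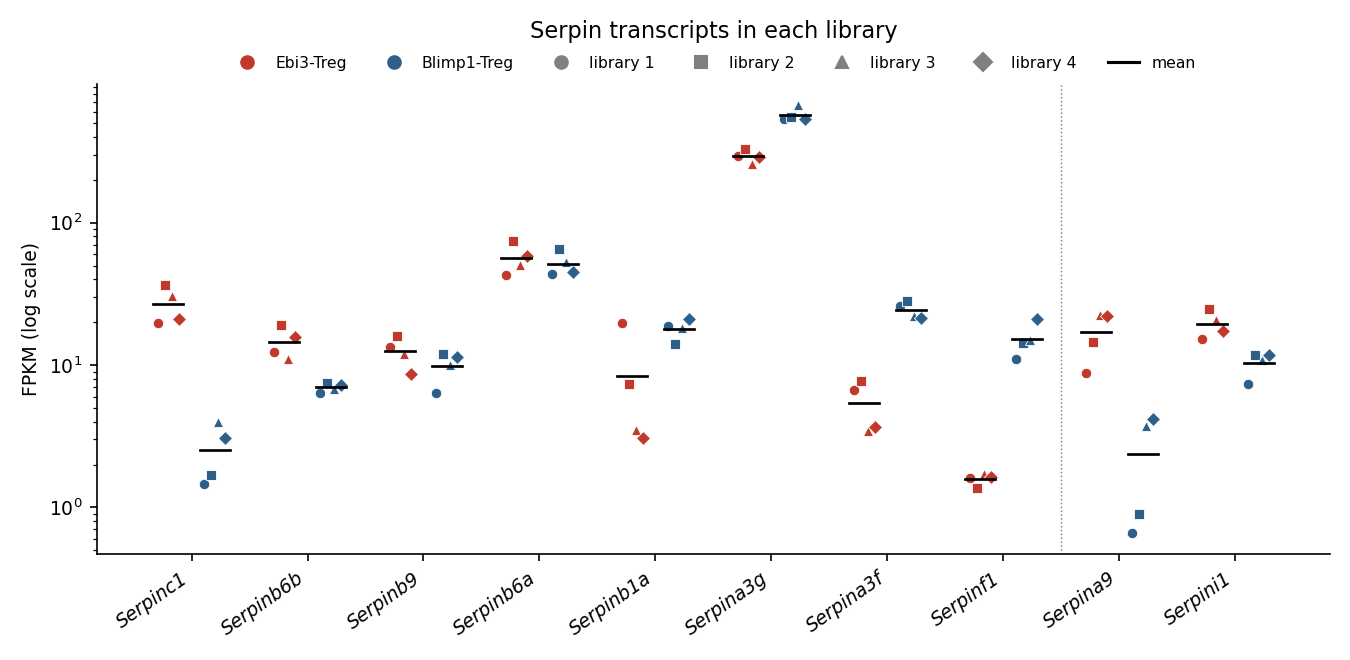
FPKM (log scale) of the 8 members and, right of the dotted line, Serpina9 and Serpini1, in each Ebi3-Treg (red, left) and Blimp1-Treg (blue, right) library, with black lines at the means. Serpinc1, Serpinb6b, Serpina3g, Serpina3f, Serpinf1, Serpina9 and Serpini1 have populations that do not overlap, while those of Serpinb9, Serpinb6a and Serpinb1a do.

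The intracellular clade B members, all on chromosome 13, differed less between the populations than Serpinc1 did. Serpinb9, the inhibitor of granzyme B, was at 13.3, 16.03, 11.9 and 8.66 FPKM in Ebi3-Treg 1 to 4 and at 6.32, 11.9, 10.0 and 11.4 FPKM in Blimp1-Treg 1 to 4. The populations overlapped, with Ebi3-Treg 4 below 3 of the Blimp1-Treg libraries. The log2 difference was -0.06 in libraries 3 and 4 and 0.68 in libraries 1 and 2, and without Blimp1-Treg 1 the pooled 0.31 became 0.07.

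Serpinb6a, whose human counterpart inhibits cathepsin G and trypsin-like proteases, was the highest clade B member in both populations. It was at 42.8, 74.2, 50.1 and 58.1 FPKM in Ebi3-Treg 1 to 4 and at 43.3, 65.2, 52.8 and 44.9 FPKM in Blimp1-Treg 1 to 4. The populations lay on top of each other, with a log2 difference of 0.11 that turned to -0.04 without Ebi3-Treg 2. Serpinb6a shares exon sequence on the opposite strand with Nqo2, 1110046J04Rik and Ripk1. Of the 50-base words in its transcripts, 25.1% also occur in transcripts of another gene, on either strand. Ripk1 was at 21.5 ± 4.78 FPKM in the Ebi3-Treg libraries and 28.8 ± 5.47 FPKM in the Blimp1-Treg libraries (SD, n = 4 each).

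Its close relative Serpinb6b, an inhibitor of granzyme A in the mouse, separated the populations. Serpinb6b was at 12.4, 19.1, 11.04 and 15.8 FPKM in Ebi3-Treg 1 to 4, against 6.32, 7.47, 6.83 and 7.27 FPKM in Blimp1-Treg 1 to 4. All Ebi3-Treg libraries were above all Blimp1-Treg libraries, which lay close to each other. The log2 difference was 0.94, with 0.82 in the second table and 1.06 in the first. Of the 50-base words in Serpinb6b transcripts, 2.92% also occur in transcripts of another gene, 0.348% in those of Serpinb6a.

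Serpinb1a, whose human counterpart inhibits neutrophil elastase, cathepsin G and proteinase 3, had 1 library that went with the other population. It was at 19.7, 7.39, 3.49 and 3.07 FPKM in Ebi3-Treg 1 to 4 and at 18.9, 13.9, 18.1 and 21.2 FPKM in Blimp1-Treg 1 to 4. Ebi3-Treg 1 lay within the range of Blimp1-Treg, and the other 3 Ebi3-Treg libraries were below all 4 Blimp1-Treg libraries. The log2 difference was -1.33 over all libraries and -1.78 without Ebi3-Treg 1.

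The summed markers of B cells and of myeloid cells were highest in that library. So were those of plasma cells (44.4 FPKM), of natural killer (NK) and CD8 cells (53.6 FPKM) and of stroma (6.67 FPKM). The sum of the liver markers was highest in Blimp1-Treg 4 instead. The 8 B cell markers summed to 248.3, 49.2, 72.5 and 63.3 FPKM in Ebi3-Treg 1 to 4 and to 171.4, 32.5, 38.5 and 36.1 FPKM in Blimp1-Treg 1 to 4. Cd22 alone gave 44.5 FPKM of the B cell sum in Ebi3-Treg 3 and 28.8 FPKM in Ebi3-Treg 4. The 11 myeloid markers summed to 162.8, 122.4, 14.1 and 30.2 FPKM in Ebi3-Treg 1 to 4 and to 44.4, 19.6, 12.1 and 24.1 FPKM in Blimp1-Treg 1 to 4. Lyz2 alone gave 99.1 FPKM of the myeloid sum in Ebi3-Treg 1 and 91.1 FPKM in Ebi3-Treg 2. The neutrophil transcripts S100a8, S100a9 and Csf3r were at no more than 0.184, 0.768 and 0.643 FPKM in any Ebi3-Treg library. In the Blimp1-Treg libraries they reached 0.952, 2.51 and 0.362 FPKM, in that order. Blimp1-Treg 1 also carried the B cell transcripts but was not the highest Blimp1-Treg library in Serpinb1a. The part of these cells in the Serpinb1a value of Ebi3-Treg 1 was not tested.

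**Figure D2:**
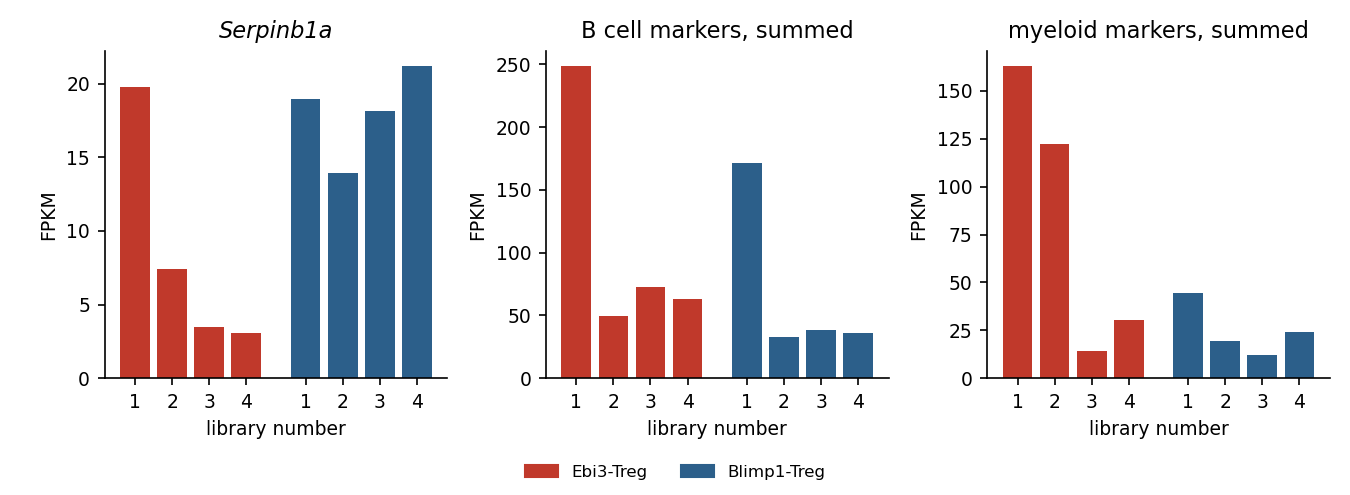
FPKM of Serpinb1a, the summed FPKM of 8 B cell markers and that of 11 myeloid markers, in Ebi3-Treg (red) and Blimp1-Treg (blue) libraries 1 to 4. Serpinb1a was at 19.7 FPKM in Ebi3-Treg 1, where both marker sums were highest, and at 3.07 to 7.39 FPKM in the other Ebi3-Treg libraries. The sums of the plasma cell, NK and CD8, and stroma markers, not shown, were highest there as well.

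The clade A3 pair on chromosome 12 was lower in Ebi3-Treg. Serpina3g (also called Spi2A), an inhibitor of lysosomal cathepsins that acts inside lymphocytes, was the highest serpin in every library. It was at 296, 330, 257 and 288 FPKM in Ebi3-Treg 1 to 4, against 533, 552, 666 and 534 FPKM in Blimp1-Treg 1 to 4. No Ebi3-Treg library reached the lowest Blimp1-Treg library. The means were 293 ± 30.2 FPKM in the Ebi3-Treg libraries and 571 ± 63.9 FPKM in the Blimp1-Treg libraries (SD, n = 4 each), with a log2 difference of -0.96.

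Serpina3f, its neighbour and close relative in the antichymotrypsin clade, was at 6.73, 7.78, 3.43 and 3.70 FPKM in Ebi3-Treg 1 to 4. In Blimp1-Treg 1 to 4 it was at 25.8, 28.1, 21.96 and 21.5 FPKM. The populations did not overlap, and within both of them libraries 1 and 2 were above libraries 3 and 4. The means were 5.41 ± 2.18 FPKM in the Ebi3-Treg libraries and 24.4 ± 3.19 FPKM in the Blimp1-Treg libraries (SD, n = 4 each), a ratio of 0.222 and a log2 difference of -2.04. Reads can be shared within this gene cluster, since 15.5% of the 50-base words of Serpina3g and 10.6% of those of Serpina3f occur in another gene, and 6.29% and 6.03% in each other. Among the other genes that hold such words, Serpina3h was at no more than 0.127 FPKM and Serpina3i at no more than 0.323 FPKM in any library.

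The promoters of this pair are shown because the 2 genes lie side by side and were lower together. Both are from RefSeq (GRCm38.p6, plus strand), 5′ to 3′, from 250 bases before the start of the transcript to 50 bases after it, at chr12:104214294-104214593 for the upstream of the 2 overlapping Serpina3f entries and chr12:104235897-104236196 for Serpina3g. Capitals mark the match to the STAT motif TTCNNNGAA.
Serpina3f: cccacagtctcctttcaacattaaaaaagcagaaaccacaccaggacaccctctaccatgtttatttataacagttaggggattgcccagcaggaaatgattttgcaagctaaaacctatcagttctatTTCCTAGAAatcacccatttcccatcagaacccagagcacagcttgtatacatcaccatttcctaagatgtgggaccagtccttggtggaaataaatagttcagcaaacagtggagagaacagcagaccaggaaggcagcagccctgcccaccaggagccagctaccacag
Serpina3g: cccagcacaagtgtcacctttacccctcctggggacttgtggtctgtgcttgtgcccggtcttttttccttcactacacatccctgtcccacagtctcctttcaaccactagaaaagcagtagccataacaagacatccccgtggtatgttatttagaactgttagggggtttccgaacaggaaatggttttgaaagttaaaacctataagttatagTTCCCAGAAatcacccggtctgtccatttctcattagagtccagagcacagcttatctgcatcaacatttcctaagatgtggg
The match starts at position -121 from the transcript start in Serpina3f and at -33 in Serpina3g. Searched on both strands, TTCNNNGAA occurred in 4 of the 9 RefSeq promoters of members (7 of the 8 members had an entry) and in 8.30% of all 32851 promoters. The 4 were both Serpina3f entries, which overlap, and 1 promoter each of Serpina3g and Serpinb6a. Serpina3f and Serpina3g are close relatives whose promoters are alike around the match, so their matches are not independent of each other. The Blimp1 core GTGAAAG occurred in the Serpinb9 promoter only and in 4.24% of all promoters, and the TCF-1 word CTTTGAT in none of the 9 and in 3.73% of all. The 2 NF-kB words searched occurred in none of the 9, and each in under 1% of all promoters. A match is only a run of letters and not evidence of binding.

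Serpinf1 encodes pigment epithelium-derived factor, a secreted serpin without protease inhibitor activity that is known for restraining blood vessel growth. It was at 1.60, 1.38, 1.72 and 1.64 FPKM in Ebi3-Treg 1 to 4, which stand for 19 to 34 reads a library. In Blimp1-Treg 1 to 4 it was at 10.97, 14.2, 15.1 and 21.2 FPKM, or 229 to 284 reads. The populations were far apart, and the Ebi3-Treg libraries were close to each other. The means were 1.59 ± 0.15 FPKM in the Ebi3-Treg libraries and 15.4 ± 4.28 FPKM in the Blimp1-Treg libraries (SD, n = 4 each), a ratio of 0.103 and a log2 difference of -2.63. Its transcripts shared no 50-base word with another gene.

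**Figure D3:**
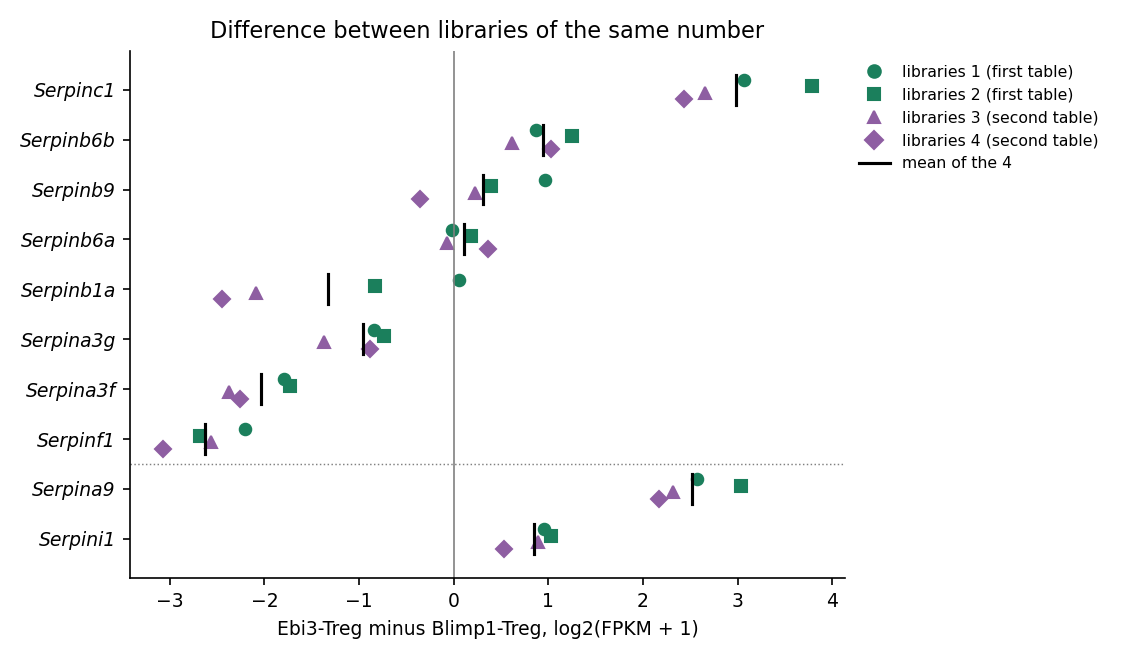
Difference in log2(FPKM + 1), Ebi3-Treg minus Blimp1-Treg, between the 2 libraries of the same number, for the 8 members and, under the dotted line, Serpina9 and Serpini1. Black lines are means of the 4 differences, green points are from the first table and purple points from the second. Serpinb1a spreads most, from 0.06 in libraries 1 to -2.44 in libraries 4.

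Among the members, Serpinc1 and Serpinb6b were higher without overlap, and Serpina3g, Serpina3f and Serpinf1 were lower without overlap. Over the 12273 genes that reached 1 FPKM in 4 or more libraries, all 8 members among them, 6.63% were higher in Ebi3-Treg without overlap and 4.5% were lower. Since the members were chosen on this contrast, nothing is read from these shares. Between libraries of the same number the difference had the same sign in all 4 numbers for those 5 members, which their lack of overlap fixes. For Serpinb9, Serpinb6a and Serpinb1a the sign was not the same in all 4 numbers.

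The summed FPKM of all 68 serpins was 429 to 540 in the Ebi3-Treg libraries and 659 to 816 in the Blimp1-Treg libraries. Serpina3g made up 62.9% ± 2.88 of that sum in Ebi3-Treg and 79.1% ± 2.58 in Blimp1-Treg (SD, n = 4 each). Without Serpina3g the sums were 173 ± 25.7 FPKM in the Ebi3-Treg libraries and 150 ± 17.5 FPKM in the Blimp1-Treg libraries. Serpinb6a followed with 9.54% to 13.8% in Ebi3-Treg libraries and 6.41% to 9.17% in Blimp1-Treg libraries. Serpinc1 made up 4.37% to 7.06% of the sum in Ebi3-Treg libraries and 0.222% to 0.487% in Blimp1-Treg libraries.

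By mean FPKM the members ran Serpina3g, Serpinb6a, Serpinc1, Serpinb6b, Serpinb9, Serpinb1a, Serpina3f and Serpinf1 in Ebi3-Treg. Serpina3g, Serpinb6a and Serpinc1 each lay above the next member without overlap. Serpinb6b, Serpinb9, Serpinb1a and Serpina3f each overlapped a neighbour in this order, and Serpinf1 was below all of them. In Blimp1-Treg the order was Serpina3g, Serpinb6a, Serpina3f, Serpinb1a, Serpinf1, Serpinb9, Serpinb6b and Serpinc1. There the first 3 did not overlap the next member. Serpinb1a, Serpinf1, Serpinb9 and Serpinb6b each overlapped a neighbour, while Serpinc1 was below all other members.

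Levels set between genes rest on the gene length used for FPKM. The deposited values gave whole reads with the mean length of a gene's annotated transcripts for 76.0% to 78.9% of values above 0, which for Serpinc1 is 1599 bases while its longest coding transcript has 4970. With the length of the longest coding transcript, Serpinc1 would stand at 8.61 ± 2.54 FPKM in Ebi3-Treg and at 0.820 ± 0.380 FPKM in Blimp1-Treg (SD, n = 4 each), and so below Serpinb6b and Serpinb9 in Ebi3-Treg as well as in Blimp1-Treg. This choice, made after seeing the data, leaves the ratio between the populations within a gene as it is.

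**Figure D4:**
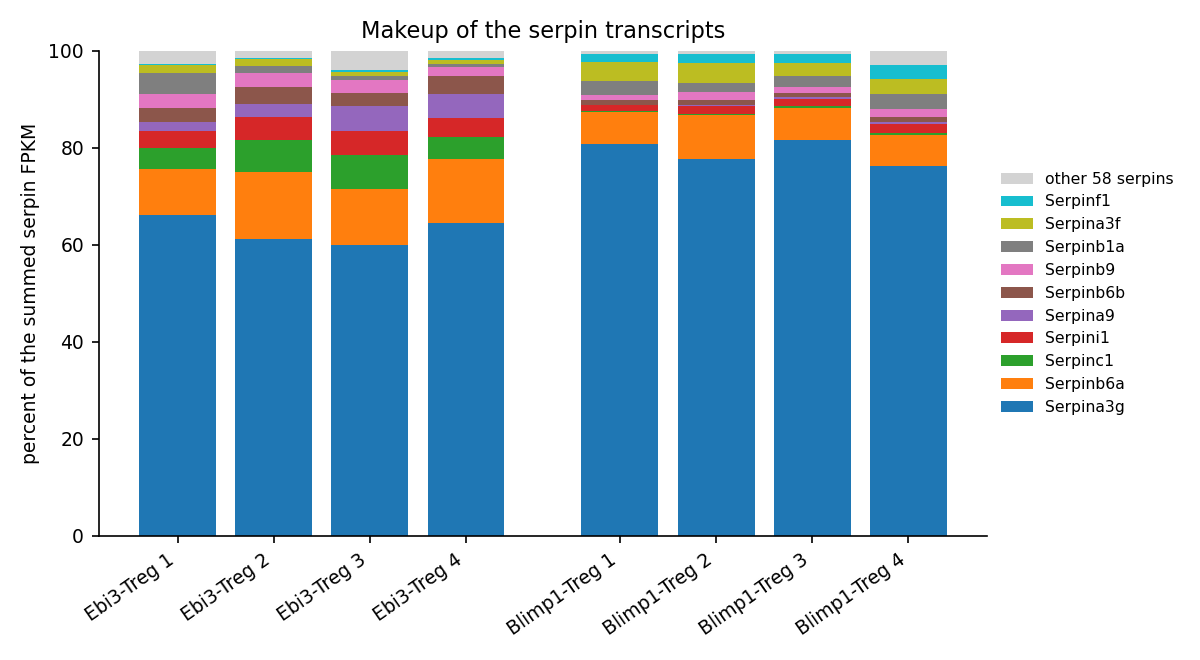
Percent of the summed FPKM of all 68 serpins in each library that falls on each serpin, Ebi3-Treg left and Blimp1-Treg right. Serpina3g takes 59.8% to 66.1% in Ebi3-Treg and 76.3% to 81.7% in Blimp1-Treg.

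Whether the members differed between libraries 3 and 4 and libraries 1 and 2 was tested, since the choice of members did not use that contrast. With limma on log2(FPKM + 1), none of the 8 members passed, against 1032 of all genes tested (8.41%). At an unadjusted p under 0.05, 1 of the 8 members passed, as did 3959 of the 12273 genes tested. Serpina3f came nearest, at 12.6 FPKM on average in libraries 3 and 4 and 17.1 FPKM in libraries 1 and 2 (log2 difference of libraries 3 and 4 minus 1 and 2 -0.58, SE 0.17, adjusted p = 0.0701). Serpinb1a had -0.69 (SE 0.44, adjusted p = 0.286) and Serpinc1 0.36 (SE 0.28, adjusted p = 0.366). At this number of libraries a change of the size of Serpinb1a's could not be told from the spread.

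The difference between the populations was also compared between tables. Over all genes, 0 of 12273 (0%) passed this interaction test in limma, while 203 had an unadjusted p under 0.05, and with the replicate number as a block 13 genes passed. For members the values are a description, since their choice used the contrast within each table. Serpinb1a had the widest gap of the members, with a log2 difference of -2.27 in the second table against -0.39 in the first. Serpinc1 had a log2 difference of 2.54 in the second table and 3.43 in the first.

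Over the 8 libraries, members that were higher and members that were lower varied against each other, which the choice of members in part fixes. Serpinc1 and Serpinb6b had r = 0.91 (Pearson, log2(FPKM + 1), 8 libraries of 2 populations), and Serpina3g and Serpina3f r = 0.96. Serpinc1 against Serpinf1 gave r = -0.94. Among 8709 named genes that averaged 5 FPKM or more in a population, the pattern of Serpinc1 was most like those of Mccc2 (r = 0.99), Nipsnap1 (0.99) and Ssbp2 (0.99). Ssbp2, the gene of a single-stranded DNA-binding protein, averaged 74.4 FPKM in the Ebi3-Treg libraries and 24.5 FPKM in the Blimp1-Treg libraries.

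Serpinf1 was most like Renbp (r = 0.99), Prdm1 (0.98) and Twsg1 (0.98), so that the gene of the Blimp1 reporter, on which the sort was made, was among its 3 nearest. Serpina3f was nearest to Racgap1 (0.99), Havcr2 (0.98) and Cdt1 (0.98). Havcr2, which encodes the inhibitory receptor Tim-3, averaged 0.643 FPKM in the Ebi3-Treg libraries and 16.4 FPKM in the Blimp1-Treg libraries. Racgap1 and Cdt1, which act in cell division and in the licensing of DNA replication, were at 34.3 and 18.9 FPKM in the Ebi3-Treg libraries and at 96.2 and 28.6 FPKM in Blimp1-Treg.

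Serpina3g was nearest to Fuca2 (0.98), Cers2 (0.97) and Renbp (0.97), and Serpinb6b to Mrpl45 (0.98), Fkbp4 (0.98) and Cat (0.97). Serpinb1a was nearest to Il1r1, the gene of an interleukin 1 receptor (0.99), and to the cell cycle genes Plk1 (0.97) and Mcm7 (0.97). Plk1 averaged 3.73 FPKM in the Ebi3-Treg libraries and 9.57 FPKM in the Blimp1-Treg libraries. Among the closest genes to Serpinb6a were Spg21 (0.97) and Slc25a17 (0.97), and those to Serpinb9 were Otud6b (0.92), Zfp119a (0.91) and Galk2 (0.90). These r are a description over 8 libraries that share population and table, and they carry no test.

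In the serpins outside the members the contrast could be tested, and 2 of 60 were high enough for it. Of all 12273 genes 413 were higher in Ebi3-Treg (3.37%) and 359 lower (2.93%), and 2752 passed with the replicate number as a block (22.4%). Scaling the libraries by the median of ratios turned the split to 341 higher and 448 lower. Of the 2 serpins tested, 1 was higher and 1 did not pass.

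Serpina9, a serpin of germinal centre B cells in the human, was at 8.85, 14.5, 22.4 and 22.3 FPKM in Ebi3-Treg 1 to 4, against 0.661, 0.895, 3.71 and 4.16 FPKM in Blimp1-Treg 1 to 4. It rose in Ebi3-Treg, with a fold change on the log2 scale of 2.52 (SE 0.21, adjusted p = 0.000743), and the call held in each fit that left out 1 library. Within both populations libraries 3 and 4 were above libraries 1 and 2, with a log2 difference of 1.195 (SE 0.21, adjusted p = 0.0218). That call was lost without Ebi3-Treg 3, Ebi3-Treg 4, Blimp1-Treg 3 or Blimp1-Treg 4, with adjusted p of 0.0542, 0.0765, 0.0951 and 0.0894. Serpina9 was lowest in each population in library 1, where the sum of the B cell markers was highest. The part of B cells in the Serpina9 values was not tested.

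Serpini1 encodes neuroserpin, an inhibitor of tissue plasminogen activator. It was at 15.3, 24.8, 20.8 and 17.3 FPKM in Ebi3-Treg 1 to 4, against 7.36, 11.7, 10.8 and 11.7 FPKM in Blimp1-Treg 1 to 4. The populations did not overlap, and the log2 fold change was 0.85 (SE 0.21, adjusted p = 0.0584, and 0.00334 with the replicate block). Of the 58 serpins below the filter, 49 stayed under 1 FPKM in every library and the highest single value was 2.74 FPKM, for Serpinb9c in Ebi3-Treg 3. The serpins that neighbour members were low as well, with Serpinb9b at no more than 0.167 FPKM, Serpinb6c at no more than 0.265 FPKM, Serpinb1c at no more than 0.706 FPKM and Serpinf2 at no more than 0.406 FPKM.

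Granzymes and other granule proteases are known targets of clade B serpins. The list of 14 granule genes also holds Prf1, which encodes perforin and no protease. Of its genes 6 were tested, Prf1 included, of which 0 were higher and 3, all granzymes, lower. The median log2 fold change was -1.40, beside 0.07 over all genes. Gzma, which encodes granzyme A, did not pass (log2 fold change -0.91, SE 0.38, adjusted p = 0.255), and its populations overlapped. Its inhibitor Serpinb6b did not overlap. Gzmm, which encodes granzyme M, had 0.22 (adjusted p = 0.856). Gzma and Gzmm were chosen after their values were seen. Gzmb, which encodes granzyme B, the target of Serpinb9, was at 2.26, 0.140, 0.159 and 0 FPKM in Ebi3-Treg 1 to 4, against 181.8, 162.8, 54.8 and 34.5 FPKM in Blimp1-Treg 1 to 4. The log2 fold change was -5.93 (SE 0.38, adjusted p = 0.00031), with its inhibitor overlapping between the populations.

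Gzmk, which encodes granzyme K, fell to 1.01 ± 0.55 FPKM in the Ebi3-Treg libraries, against 15.0 ± 8.29 FPKM in those of Blimp1-Treg (SD, n = 4 each, log2 fold change -2.86, SE 0.42, adjusted p = 0.00726). Gzmc, another granzyme, was at 1.23 ± 1.23 FPKM in the Ebi3-Treg libraries and 5.31 ± 3.21 FPKM in the Blimp1-Treg libraries, and its log2 fold change was -1.51 (SE 0.24, adjusted p = 0.00989, and 0.169 without the table term). Granzymes have near-identical copies, so reads may be shared between them. Prf1, the pore-forming perforin that lets granzymes into a target cell, had -1.28 (SE 0.47, adjusted p = 0.188, and 0.00702 with the replicate block). The genes of the neutrophil proteases that human SERPINB1 inhibits, Elane, Prtn3 and Ctsg, were at no more than 0.425 FPKM in any library.

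Among the lysosomal cathepsins and legumain, 13 of 14 genes were tested, and 1 was higher and 3 were lower (with the replicate block, 1 and 7). Over all genes 3.37% were higher and 2.93% lower, and 22.4% passed in either direction with the block. The median log2 fold change was -0.33. Lgmn, which encodes the lysosomal protease legumain, fell to 6.00 ± 1.36 FPKM in the Ebi3-Treg libraries, against 45.3 ± 28.1 FPKM in those of Blimp1-Treg (SD, n = 4 each, log2 fold change -2.54, SE 0.29, adjusted p = 0.00306). Ctsb, which encodes cathepsin B, a target of Serpina3g, was at 111, 162, 133 and 146 FPKM in Ebi3-Treg 1 to 4, against 279, 284, 255 and 316 FPKM in Blimp1-Treg 1 to 4.

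The populations did not overlap in Ctsb, and its log2 fold change was -1.04 (SE 0.15, adjusted p = 0.0074), beside the -0.96 of Serpina3g. Of the tested genes of this list, 9 did not pass. Among them Ctsl and Ctsh, which encode cathepsins L and H, had -0.14 (adjusted p = 0.89) and -0.05 (adjusted p = 0.988). These 2 were chosen after their values were seen. Ctsc, which encodes the cathepsin that activates granzymes, had -0.74 (SE 0.12, adjusted p = 0.0101) and lost the call without Ebi3-Treg 4 (adjusted p = 0.054) or Blimp1-Treg 4 (0.0604). Ctsf, which encodes cathepsin F, rose to 12.4 ± 5.16 FPKM in the Ebi3-Treg libraries, against 4.85 ± 2.17 FPKM in those of Blimp1-Treg (SD, n = 4 each, log2 fold change 1.19, SE 0.17, adjusted p = 0.00675). Without the table term its adjusted p was 0.157.

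Transcripts of proteases that antithrombin inhibits were low in these cells. Of 23 coagulation and fibrinolysis genes 8 were tested, of which 0 were higher and 2 lower (with the replicate block, 1 and 3), with a median log2 fold change of -0.05. F2, F9, F10 and F11, which encode prothrombin and the factors IX, X and XI, were at no more than 0.697 FPKM in any library. Of the receptors through which thrombin acts on cells, PAR1 and PAR3 passed the test and PAR4 did not. F2r, the thrombin receptor PAR1, was at 52.6, 22.8, 23.0 and 32.0 FPKM in Ebi3-Treg 1 to 4, against 100.5, 69.5, 54.9 and 66.4 FPKM in Blimp1-Treg 1 to 4.

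The populations did not overlap in F2r, and the log2 fold change was -1.18 (SE 0.27, adjusted p = 0.0418). That call was lost in each fit without 1 library other than Ebi3-Treg 1, with adjusted p up to 0.144, and likewise without the table term (0.0791) or the filter on low values (0.113). F2rl2, which encodes PAR3, another thrombin receptor, fell to 1.49 ± 0.93 FPKM in the Ebi3-Treg libraries, against 8.16 ± 3.51 FPKM in those of Blimp1-Treg (SD, n = 4 each, log2 fold change -1.87, SE 0.22, adjusted p = 0.00326). F2rl3, which encodes PAR4, was at 3.14 ± 0.87 FPKM in the Ebi3-Treg libraries and 3.45 ± 0.78 FPKM in the Blimp1-Treg libraries (SD, n = 4 each, log2 fold change -0.11, adjusted p = 0.897), and it was chosen after its values were seen. F2rl1, which encodes PAR2, had -1.06 (adjusted p = 0.201, and 0.00325 with the replicate block). Plaur, which encodes the urokinase receptor, had 1.66 (adjusted p = 0.0548, and 0.0302 with the block).

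Heparan sulfate, the sugar chain that speeds up antithrombin, was covered by 22 tested genes of 38, of which 1 was higher and 0 lower (with the replicate block, 3 and 1). The median log2 fold change was 0.08, beside 0.07 over all genes. Extl1, which encodes a glycosyltransferase of the exostosin family, was at 3.42 ± 1.43 FPKM in the Ebi3-Treg libraries and 1.08 ± 0.82 FPKM in the Blimp1-Treg libraries (SD, n = 4 each, log2 fold change 1.101, SE 0.22, adjusted p = 0.0253). The call was lost in each fit without 1 library other than Blimp1-Treg 3, with adjusted p up to 0.0974, and likewise without the table term (0.134) or the filter (0.0765). Sdc4, the gene of the heparan sulfate carrier syndecan 4, had -0.54 (SE 0.25, adjusted p = 0.32, and 0.0433 with the block). Ext1, a chain-building enzyme, had 0.29 (adjusted p = 0.342), and Hpse, which encodes heparanase, had -0.56 (adjusted p = 0.406).

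Of 22 other protease inhibitors 6 were tested, of which 0 were higher and 1 was lower (with the replicate block, 0 and 2), with a median log2 fold change of -0.21. Timp2, which encodes an inhibitor of matrix metalloproteases, fell to 78.0 ± 20.6 FPKM in the Ebi3-Treg libraries, against 249 ± 31.7 FPKM in those of Blimp1-Treg (SD, n = 4 each, log2 fold change -1.70, SE 0.19, adjusted p = 0.00255). Cst3, the gene of cystatin C, a cathepsin inhibitor, had -0.55 (adjusted p = 0.181, and 0.0218 with the block). Reck and Cstb, a membrane-anchored metalloprotease inhibitor and the intracellular cystatin B, had 0.50 (adjusted p = 0.286) and -0.34 (adjusted p = 0.794).

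**Figure D5:**
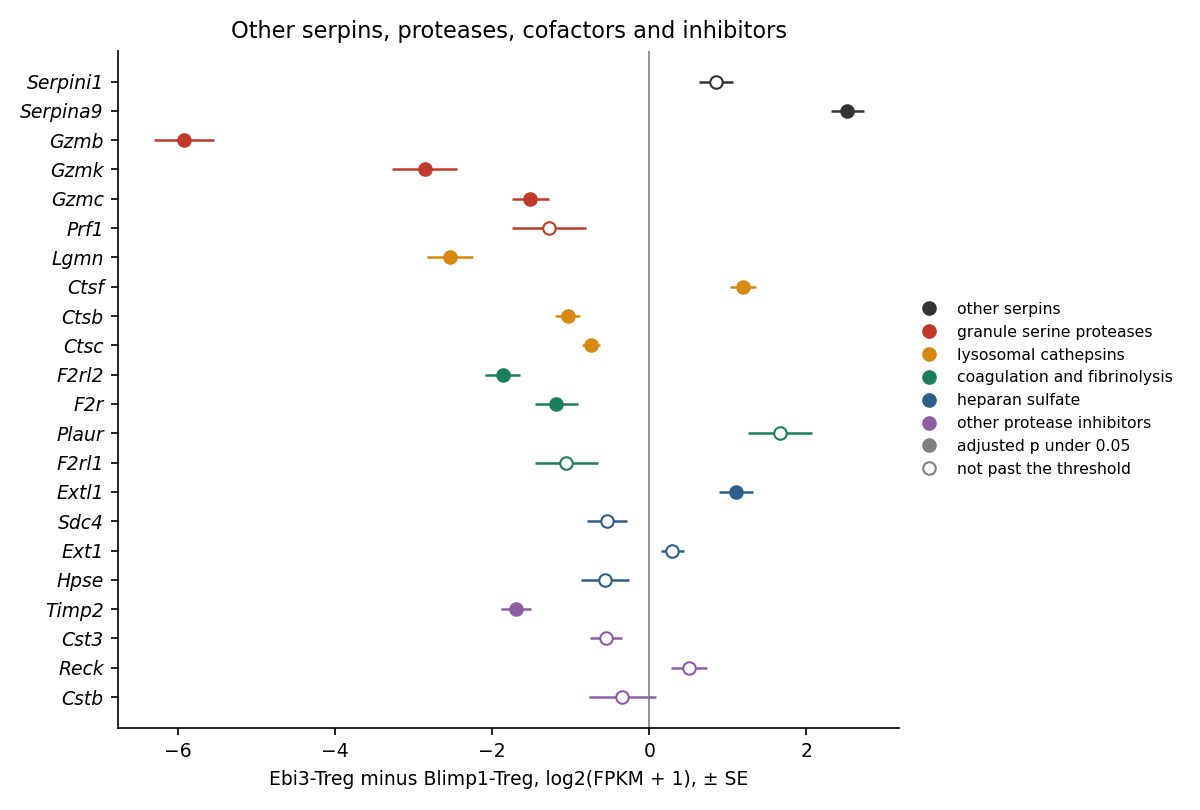
Log2 fold change, Ebi3-Treg minus Blimp1-Treg, with its SE, of the 2 other serpins tested and of the 4 tested genes with the smallest unadjusted p in each list. Filled points passed an adjusted p of 0.05 and open points did not. Gzmb lies farthest left at -5.93 and Serpina9 farthest right at 2.52.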

How the data were processed

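The SMART-Seq v4 kit for low RNA input was used, per the labels. The submitters' processing notes name TopHat2 2.0.12, Bowtie2 2.2.3, HTSeq 0.6.1 and the build mm9. The role of each tool, the annotation and the use of strand are not stated there. Values per gene were deposited as FPKM, in a pair of tables. Features without an Ensembl identifier were left out, and 46488 of 47069 genes had a symbol in GENCODE, whose build (GRCm38) differs. Its coordinates are not printed and served for gene lengths, neighbours and exon overlaps.

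Genes that reached 1 FPKM in 4 or more libraries were fitted on log2(FPKM + 1) with limma 3.58.1 in R 4.3.3. The terms were population and table, variances were moderated with a trend, and the threshold was a two-sided p under 0.05 after Benjamini-Hochberg adjustment. Fold changes on this scale understate changes of low genes. Reads behind a value were recovered from its whole multiples (tolerance 0.01). A low-input kit amplifies cDNA, so they are not independent molecules. No count test was run on them, since too few values were whole.

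Same-numbered libraries deviated from their population means in the same way (r = 0.62, 0.89, 0.53 and 0.54 for numbers 1 to 4), and relative to the means within each table r was 0.85 in the first and -0.08 in the second. The replicate block, a fit with these numbers as a term, is given where it changes a call.

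Members, lists and alternatives were chosen with earlier results of these data known. The genes named are all members, the other serpins tested, of each list the 4 tested genes with the smallest p, the 3 genes most like each member (1 is not reported here), and neighbours. Marker genes, genes at or near 0, F2rl3, Ctsl, Ctsh, Gzma and Gzmm were picked after their values were seen. Loops, 50-base words and motifs were found with Python 3.11.15 and Biopython 1.88.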

Additional observations from a re-analysis of the deposited data

Results flagged for a closer look

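Among 60 groups of 4 libraries examined (the members and the other genes named from the lists, in each population), 3 had a library far from the other 3, and chance gives about 1 in 20 such groups. Serpina3g was at 666 FPKM in Blimp1-Treg 3, above the other Blimp1-Treg libraries at 533, 552 and 534 FPKM. Gzmb was at 2.26 FPKM in Ebi3-Treg 1, against 0 to 0.159 FPKM in the other Ebi3-Treg libraries. The summed NK and CD8 markers were highest in that library too, at 53.6 FPKM, and the part of such cells was not tested. Sdc4 was at 24.5 FPKM in Ebi3-Treg 2, below the other Ebi3-Treg libraries.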

How the results depend on the processing

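Lack of overlap fixes the direction of a gene under every setting tried except scaling by the median of ratios. The 5 members whose populations did not overlap kept their direction under each setting, scaling included. Their log2 differences over fits without 1 library ranged from 2.73 to 3.18 for Serpinc1, 0.80 to 1.06 for Serpinb6b, -1.03 to -0.86 for Serpina3g, -2.13 to -1.97 for Serpina3f and -2.73 to -2.50 for Serpinf1. The log2 difference of Serpinb6a became 0.01 when libraries were scaled by the median of ratios, which shifted the median of all genes by -0.10. The 772 genes called between populations became 420 without a filter, 441 without the table term, 2752 with the replicate block, 1970 without both libraries numbered 1 and 1962 without both numbered 2, and 341 to 771 without 1 library. The libraries whose loss moved this count most were Ebi3-Treg 3 (385), Ebi3-Treg 4 (370), Blimp1-Treg 3 (403) and Blimp1-Treg 4 (341). The 1032 genes called between tables became 240 without a filter, 611 after scaling and 51 to 3862 without 1 library, with 3862 without Ebi3-Treg 1, 51 and 56 without Blimp1-Treg 3 and 4, 69, 153 and 269 without Ebi3-Treg 4, 2 and 3, and 487 without Blimp1-Treg 2. The interaction gave 0 in each fit without 1 library and 13 with the replicate block. Called genes of the lists moved as follows. The other serpins went to 2 with the block, without both libraries 1 or without both libraries 2, and stayed at 1 without any 1 library. Genes of the granule list went to 5 without both libraries 1 (3 to 4 without 1 library). Cathepsins went to 8 with the block and 7 without both libraries 2 (3 to 4 without 1 library). Coagulation genes went to 1 without a filter or table term and 4 with the block, without both libraries 1 or without both libraries 2 (1 to 3 without 1 library). Heparan sulfate genes went to 0 without a filter, without the table term or at 5 FPKM, and 4 with the block (0 to 1 without 1 library). Other inhibitors went to 2 with the block (1 without any 1 library). The cause was not tested. Low genes such as Serpinf1 in Ebi3-Treg rest on few reads.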
